A study of Mus musculus with 4 samples.

Results

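A pair of blocks of multi-copy zinc finger genes in the mouse genome was followed through 4 DNA methylation arrays: the array probes between 174.9 and 178 Mb of chromosome 2 and those between 145 and 148 Mb of chromosome 4, in the coordinates of the arrays' build, mm9. The chromosome 2 interval held 230 probes and the chromosome 4 interval 319, so that 549 of the 174638 genomic probes were members. Joined wherever neighbouring probes lay at most 1000 bp apart, they formed 34 regions on chromosome 2 and 43 on chromosome 4, or 77 of 22125 regions in all. The intervals were chosen by the log2 IP/input differences between lines and days that these same arrays had already shown, so the ratio differences given below describe the members and test nothing.

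3T3-L1 is a fibroblast line from mouse embryos whose cells turn into fat cells once induced. One line was stably transfected with an shRNA, named shRNA8, against the long non-coding RNA slincRAD. The other was the wild type line, called control here. Both were grown in medium with 10% newborn calf serum. Day +2 cells had been kept from confluence (day 0) with insulin at 167 nM, dexamethasone at 1 µM and 3-isobutyl-1-methylxanthine at 0.5 mM, and day -2 cells had not been induced. The labels mention no control shRNA or empty vector line, so that carrying an shRNA construct and losing slincRAD cannot be told apart, and DNA arrays show neither the level of slincRAD nor the identity of the cells. Each line and day had 1 array, so there is no replicate spread to hold a difference against and no p-value is given. All 4 arrays came from 1 scan, with positions 1 and 2 taken by the shRNA8 line and positions 3 and 4 by the control line, so that the line and the place on the slide cannot be told apart.

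KRAB zinc finger proteins bind DNA through arrays of zinc fingers, and their KRAB domain recruits the corepressor TRIM28, which in turn brings in enzymes that lay down repressive histone and DNA methylation. Many of them recognise retrotransposons and keep them silent. Their genes arise by tandem duplication, and the mouse blocks on chromosomes 2 and 4 are known as young, rodent-specific expansions with many near-identical copies. In methylated DNA immunoprecipitation on arrays (MeDIP-chip), an antibody against 5-methylcytosine pulls down methylated fragments (IP), which are hybridized in one colour beside unselected DNA (input) in another. The log2 ratio of IP to input is then read as the methylation level of a probe.

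The likeness of these genes can be read from their promoters. In the RefSeq annotation of GRCm38.p6, a later build than the arrays', 80 genes lie between Edn3 and Phactr3 on chromosome 2, of which 32 are protein-coding and 9 of these carry a Zfp name. Between Tnfrsf8 and Miip on chromosome 4 lie 82 genes, of which 19 are protein-coding and 16 of these carry a Zfp name. The annotation gives names and not protein domains, so that the KRAB part of the clusters' name was not checked. RefSeq's promoter table matched 31 of the 32 and 14 of the 19 genes, with 36 and 17 promoters. Of the 250 bases before the start of transcription, at least 50% of the 20-base words were also found before another gene's start in 31 of the 36 promoters on chromosome 2 (86.1%) and in 11 of the 17 on chromosome 4 (64.7%), against 6.78% of the 21263 promoters of protein-coding genes in the whole table. For Zfp966 and Zfp967 all 250 letters were the same. The median promoter shared 97.6% of its words with another gene on chromosome 2 and 54.5% on chromosome 4. The most alike pair of named Zfp genes that were not identical is printed for each cluster, 5′ to 3′ along the gene, as its closest case. Capitals mark each CpG, the dinucleotide that carries methylation.

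Zfp968, chr2:175372186-175372435, GRCm38.p6, plus strand: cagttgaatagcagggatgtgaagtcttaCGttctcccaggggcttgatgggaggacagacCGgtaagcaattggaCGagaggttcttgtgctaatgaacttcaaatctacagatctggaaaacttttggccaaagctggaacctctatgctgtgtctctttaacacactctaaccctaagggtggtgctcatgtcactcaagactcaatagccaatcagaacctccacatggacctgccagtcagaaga
Zfp973, chr2:176670272-176670521, GRCm38.p6, plus strand: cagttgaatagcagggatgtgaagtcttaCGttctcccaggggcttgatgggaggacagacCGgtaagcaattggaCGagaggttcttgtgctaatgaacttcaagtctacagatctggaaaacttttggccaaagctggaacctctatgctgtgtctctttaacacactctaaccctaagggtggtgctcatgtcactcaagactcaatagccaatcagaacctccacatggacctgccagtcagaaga
Zfp600, chr4:146156577-146156826, GRCm38.p6, plus strand: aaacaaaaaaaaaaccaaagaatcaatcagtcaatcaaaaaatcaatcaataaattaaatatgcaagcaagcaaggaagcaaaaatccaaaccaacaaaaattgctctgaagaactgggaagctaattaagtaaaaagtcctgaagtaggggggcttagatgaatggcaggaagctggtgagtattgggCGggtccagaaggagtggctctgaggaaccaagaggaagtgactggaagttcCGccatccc
Zfp979, chr4:147642509-147642758, GRCm38.p6, minus strand: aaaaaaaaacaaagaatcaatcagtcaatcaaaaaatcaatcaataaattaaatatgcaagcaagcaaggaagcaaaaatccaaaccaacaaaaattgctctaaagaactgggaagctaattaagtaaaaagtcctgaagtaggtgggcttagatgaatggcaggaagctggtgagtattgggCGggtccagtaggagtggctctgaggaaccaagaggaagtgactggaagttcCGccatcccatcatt

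Zfp968 and Zfp973 shared 211 of their 231 words of 20 bases and an unbroken run of 144 bases, and Zfp600 and Zfp979 shared 156 of 231 and a run of 93 bases. The windows are poor in CpG, with a median of 2 in 250 bases in either cluster against 10 in all promoters of protein-coding genes. These promoters show the kind of DNA in the clusters only. The arrays' files give probes by position and not by gene, and none of the 77 regions was tied to a gene here, because the builds differ.

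The array's own design, which the choice of members had not used, showed a likeness of probe layout between regions, mainly on chromosome 2. On chromosome 2, 15 of the 34 regions with at least 5 probes had a twin with the same number of probes, the same spacing to the base and the same probe lengths (44.1%). On chromosome 4 this held for 2 of 41 regions (4.88%), and over the whole array for 155 of 21581 (0.718%). The 17 regions formed 8 sets, 1 of 3 regions and 7 of 2, and within every set all copies lay the same way along the chromosome. A shorter match, a run of 4 probes with the same spacing and lengths, was found in 64.7% of chromosome 2 regions, in 26.8% of chromosome 4 regions and in 26.7% of all regions, so that chromosome 4 was at the level of the array in this measure. The deposited files hold no probe sequences, and whether probes of 1 copy also bind DNA of another was not tested.

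Over all of their probes, both clusters had a brighter input than the rest of the array, and chromosome 2 a dimmer IP. Net input, the background-subtracted Cy3 signal in scanner counts, had a median over chromosome 2 probes of 40.0 in shRNA8 cells at day +2, 24.0 in shRNA8 cells at day -2, 25.2 in control cells at day +2 and 18.1 in control cells at day -2. On chromosome 4 the medians were 28.8, 20.7, 13.3 and 12.0 in the same arrays. Probes outside the clusters had medians of 8.73, 8.61, 5.93 and 6.47. Over all probes, the cluster medians were therefore 1.85 to 4.58 times the median of the rest of the array in input, in every array, and for both clusters and both lines the ratio was larger at day +2. Local background in the input channel was 22.0 to 26.0 counts, of the same order as these net signals. Of the cluster probes, 93.0% on chromosome 2 and 71.2% on chromosome 4 passed the requirement of an input above background in all 4 arrays, against 54.4% of all probes, leaving 214 and 227 probes for the ratios.

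Net IP of chromosome 2 probes had a median of 36.0 in shRNA8 cells at day +2, 36.3 in shRNA8 cells at day -2, 31.2 in control cells at day +2 and 32.4 in control cells at day -2. That was 0.636 to 0.659 of the medians of the remaining probes, which were 56.5, 56.1, 49.0 and 49.1. The chromosome 4 medians of 59.1, 58.8, 52.0 and 51.5 were 1.04 to 1.06 times those of the remaining probes. These medians take in probes with no input above background. Among the probes that passed the input requirement, chromosome 4 was also dimmer in IP than the array. Log2 IP centred on the median of each array had a median of -0.57, -0.53, -0.63 and -0.59 over the 227 chromosome 4 probes and of -2.17, -2.10, -2.10 and -2.12 over the 214 chromosome 2 probes, in the same order of arrays. Centred log2 input of the same probes had medians of 0.61, -0.21, 0.41 and -0.17 on chromosome 2 and of 0.72, 0.22, 0.11 and -0.09 on chromosome 4. Among these probes the chromosome 2 input was thus above the array at day +2 and below it at day -2 in both lines. The log2 ratio of chromosome 2 probes, centred in the same way, had a median of -2.90 in shRNA8 cells at day +2, -1.76 in shRNA8 cells at day -2, -2.61 in control cells at day +2 and -1.85 in control cells at day -2. On chromosome 4 the median ratios were -0.94, -0.69, -0.73 and -0.58. Chromosome 2 was lower than chromosome 4 in all 4 arrays.

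**Figure D1:**
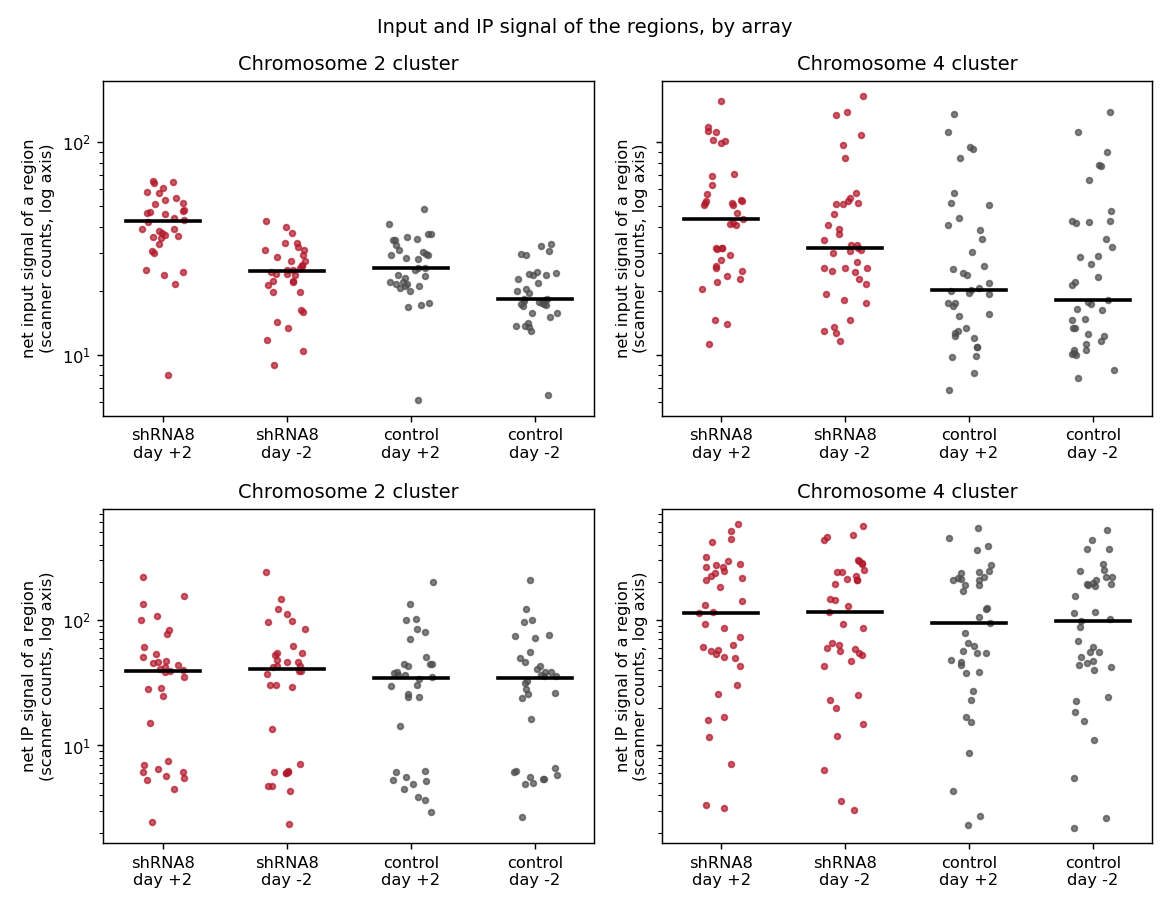
Net signal of each region (median over its probes, scanner counts, log axis) in the 4 arrays, input in the upper row and IP in the lower, for the 34 regions of chromosome 2 and the 39 of chromosome 4 that kept at least 3 probes; bars mark medians over regions. The input of shRNA8 cells at day +2 is the brightest in both clusters, and the IP panels are nearly level within each line. Net signals are not centred, and outside the clusters the shRNA8 inputs were brighter than the control inputs as well.

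Of the 4 comparisons, the largest mean difference lay between the days in shRNA8 cells on chromosome 2 and between the lines at day +2 on chromosome 4. The size rule for calling a region lower or higher asked for a mean log2 ratio difference of 0.6 or more (1.52-fold) with 75% or more of the probes on that side of 0. At day +2 against day -2 in shRNA8 cells, 28 of 34 chromosome 2 regions and 15 of 39 chromosome 4 regions were lower and none was higher. Over all 17452 regions of at least 3 probes, 2.21% were lower and 0.980% higher by the same rule. The mean difference over probes was -0.90 on chromosome 2 and -0.32 on chromosome 4. In control cells, 12 of 34 and 2 of 39 regions were lower at day +2 and none was higher, against 1.11% lower and 0.986% higher over all regions, with mean differences of -0.47 and -0.15. The members were picked for such differences, so these shares are descriptions of the choice.

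Taken apart, the channels differed. In shRNA8 cells at day +2 against day -2, the IP of chromosome 2 probes differed by 0.02 on average and their input by 0.84, and on chromosome 4 the IP differed by 0.01 and the input by 0.29 (log2, each channel centred on its array median). In control cells the IP differed by -0.06 and the input by 0.49 on chromosome 2, and by -0.04 and 0.16 on chromosome 4. By IP alone no region of either cluster, and no region of the array, passed the size rule in any of the 4 comparisons. By input alone 27 of 34 and 13 of 39 regions were higher in shRNA8 cells at day +2 and none was lower, against 1.82% higher and 0.882% lower over all regions. The lower ratios at day +2 thus stood beside brighter inputs and not beside weaker IP signals. Probes had to have an input above background, but no such requirement was set for IP. Net IP over all chromosome 2 probes had a lower quartile of 3.52 to 3.98 counts in the 4 arrays. Where IP was that weak, a further fall could hardly have been seen.

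**Figure D2:**
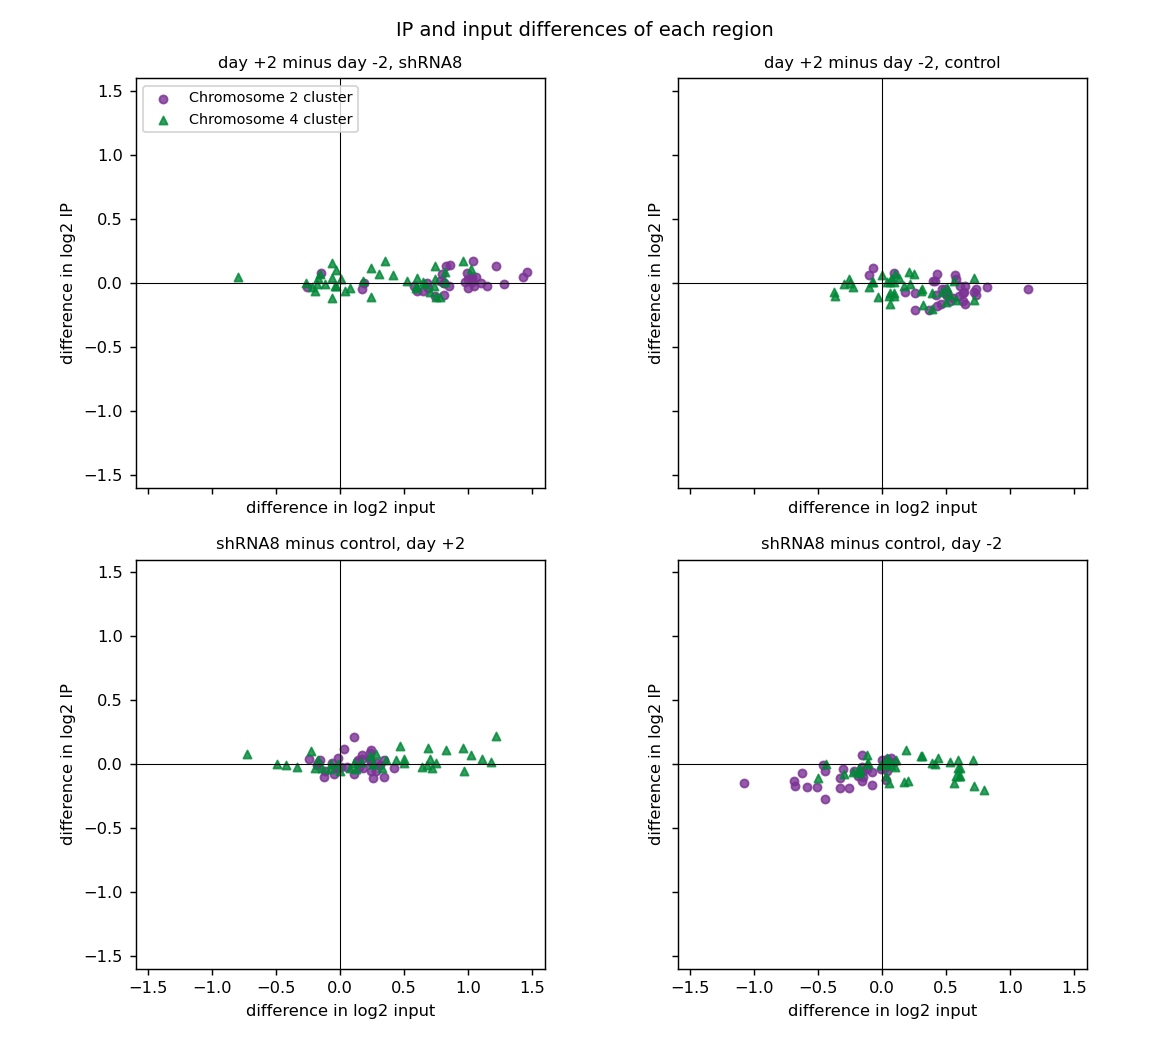
Difference in log2 IP (vertical axis) against difference in log2 input (horizontal axis) for each region, 1 panel per comparison, circles for chromosome 2 and triangles for chromosome 4. Points spread along the horizontal axis, to 1.46 in shRNA8 cells between the days, while IP differences stay between -0.27 and 0.22 in all 4 panels.

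The size of these differences depended on how background was handled. When the median spot signals were used with no background subtracted, 0 regions of either cluster passed the size rule between the days in either line, and the mean differences became -0.37 in shRNA8 and -0.17 in control cells on chromosome 2. The sign stayed. Over the whole array, 0.0287% of regions were then lower and 0.0229% higher between the days in shRNA8 cells, and 0.00573% lower and none higher in control cells.

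Between the lines the clusters parted. At day +2, 13 of 39 chromosome 4 regions were lower in shRNA8 than in control cells and 1 was higher, while on chromosome 2 it was 2 of 34 and none, against 1.94% lower and 1.40% higher over all regions. The mean ratio differences were -0.42 on chromosome 4 and -0.29 on chromosome 2. At day -2, 8 chromosome 4 regions were lower and none was higher, and on chromosome 2 none was lower and 1 was higher, against 1.25% and 1.18% of all regions. The mean differences were then -0.25 on chromosome 4 and 0.14 on chromosome 2. The input differences had the opposite signs: 0.34 and 0.11 on chromosomes 4 and 2 at day +2, and 0.20 and -0.24 at day -2. On chromosome 2 at day +2 the ratio difference of -0.29 was larger in size than the channels gave. With median centring alone, without the quantile step, it was -0.13. IP differed by at most 0.08 in size. The day difference in shRNA8 cells minus that in control cells was -0.42 on chromosome 2 and -0.17 on chromosome 4. For that difference of differences 8 chromosome 2 regions and 0 chromosome 4 regions were lower and none was higher, against 3.04% and 2.76% of all regions. With no background subtracted, 3 chromosome 4 regions and 0 chromosome 2 regions were lower between the lines at day +2 and none was higher, against 0.0630% lower and 0.0172% higher over all regions. At day -2 no region of either cluster passed, against 0.0229% of all regions in each direction. These comparisons share arrays and do not bear on each other independently.

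In order along the chromosomes the shift covered part of each interval, in stretches that were set after the values were seen. On chromosome 2 the first 30 regions, chr2:175032082-177814338, all had negative day differences in shRNA8 cells, from -1.46 to -0.70, with a mean over their 192 probes of -1.01. Their input differed by 0.94 and their IP by 0.02. The next and last 4 regions, chr2:177852395-177927766, ranged from -0.17 to 0.25 with a mean of 0.07. Median net IP of the 30 regions was 36.8 in shRNA8 cells at day +2, 38.2 in shRNA8 cells at day -2, 30.1 in control cells at day +2 and 29.8 in control cells at day -2. In the last 4 regions it was 132, 129, 118 and 109. Median net input of the 30 was 44.7, 24.8, 28.3 and 18.2 in these arrays, and of the last 4 it was 22.6, 24.3, 16.9 and 17.7. At day -2 the stretches were therefore alike in median input, and they parted at day +2 in both lines. Probes were 52.4 bases long on average in the 30 regions and 46.0 in the last 4, and the part of probe length in the difference was not tested.

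The interval's first edge did not mark the start of the shift. The nearest region before it, chr2:174892772-174894557 with 9 probes, differed by -1.17 between the days in shRNA8 cells, with a median net input of 61.4 at day +2 against 31.0 at day -2. The nearest region after the interval, chr2:178141883-178142955, differed by -0.02.

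On chromosome 4 the shift covered 19 regions, chr4:145206217-147185118. Their mean ratio difference over 108 probes was -0.71 between the days in shRNA8 cells, -0.41 between the days in control cells, -0.85 between the lines at day +2 and -0.55 between the lines at day -2. Input differed by 0.65, 0.39, 0.73 and 0.46 in these comparisons and IP by 0.01, -0.08, 0.04 and -0.05. The first region of the interval and the 19 after the stretch, 20 in all, had mean ratio differences of 0.04, 0.07, -0.02 and 0.01. All 13 regions lower between the lines at day +2 and all 8 at day -2 lay in the stretch, as did 14 of the 15 lower between the days in shRNA8 cells. Median net input of the stretch was 50.8 in shRNA8 cells at day +2, 25.6 in shRNA8 cells at day -2, 17.6 in control cells at day +2 and 13.4 in control cells at day -2. The shRNA8 array was thus the brighter of the pair at each day. In net counts this also held outside the clusters, with medians of 8.73 against 5.93 at day +2 and 8.61 against 6.47 at day -2. As on chromosome 2, probes in the stretch were longer, 52.2 bases on average against 46.2 in the 20 remaining regions, and its IP was lower, with a median of 53.9 against 232 in the remaining regions in shRNA8 cells at day +2. The nearest regions outside the interval, chr4:144904756-144906198 and chr4:148000606-148002056, differed by -0.21 and 0.40 between the days in shRNA8 cells.

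**Figure D3:**
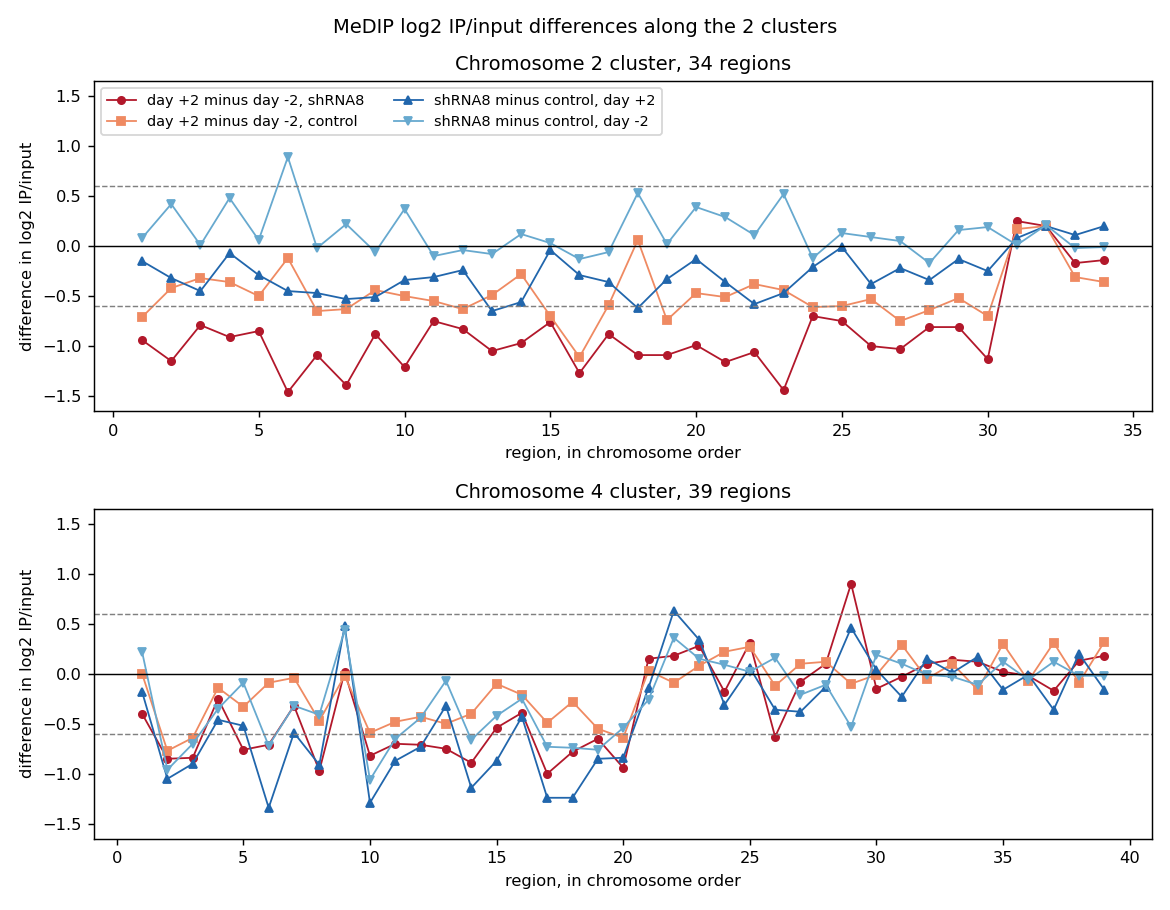
Mean difference in log2 IP/input of each region (vertical axis) in chromosome order (horizontal axis), 1 line per comparison; dashed lines mark 0.6 either way. Chromosome 2 shows a run of 30 regions below 0 between the days in shRNA8 cells that ends before the last 4, and chromosome 4 a run that ends after its region 20, with region 9 near 0 between the days.

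Single regions show what the shift looked like. On chromosome 2 the largest day difference in shRNA8 cells was at chr2:175294521-175295918, with -1.46 ± 0.56 (SD over 6 probes on the same arrays, as in all such values below). Its median net input was 33.0 in shRNA8 cells at day +2, 11.8 in shRNA8 cells at day -2, 21.5 in control cells at day +2 and 17.4 in control cells at day -2, and its net IP was 4.48, 4.33, 3.86 and 4.91. The shRNA8 input at day -2 was thus the dimmest of the 4, and this region was also the one higher in shRNA8 than in control cells at day -2, by 0.89 ± 0.47. At chr2:177248450-177249745 the day difference was -1.44 ± 0.87 in shRNA8 cells and -0.44 ± 0.52 in control cells, over net inputs of 37.5, 10.4, 21.0 and 15.7 in the same order of arrays. At chr2:176265474-176266778 both lines moved alike, by -1.27 ± 0.38 in shRNA8 and -1.11 ± 0.35 in control cells, all 6 probes lower in each, with net inputs of 35.4, 16.3, 23.7 and 13.0. Its net IP was 28.9, 29.0, 25.7 and 25.7, nearly equal at the days within a line.

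The lowest ratios on chromosome 2, averaged over the 4 arrays, were -4.68 at chr2:176849841-176851197 and -4.09 at chr2:175404530-175406090. At the first, net IP was 2.46, 2.38, 2.94 and 2.67 in shRNA8 cells at day +2, shRNA8 cells at day -2, control cells at day +2 and control cells at day -2, close to no signal in all 4. The highest, 0.93 at chr2:177908755-177910355 and 0.62 at chr2:177927119-177927766, belonged to the last 4 regions. The second of these had net IP of 221, 240, 202 and 209.

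On chromosome 4 the largest difference between the lines at day +2 was at chr4:145682677-145684282, with -1.34 ± 0.77 and all 6 probes lower in shRNA8 cells. Its net input was 98.4 in shRNA8 cells at day +2, 57.3 in shRNA8 cells at day -2, 30.4 in control cells at day +2 and 28.9 in control cells at day -2, and its net IP 50.2, 47.2, 43.8 and 42.3. Here both shRNA8 inputs were above both control inputs, in net counts that were higher in the shRNA8 arrays outside the clusters as well. At chr4:146063669-146065201 all 7 probes were lower in shRNA8 cells at both days, by -1.29 ± 0.68 at day +2 and -1.06 ± 0.26 at day -2, with net inputs of 70.6, 34.8, 19.6 and 14.8. The largest day difference in shRNA8 cells was at chr4:146926098-146927491, where all 6 probes were lower at day +2 and net inputs were 63.0, 32.9, 17.6 and 11.3. The next, -0.97 ± 0.59 at chr4:145849493-145851101, belonged to the layout pair on chromosome 4, with net inputs of 51.5, 24.7, 19.3 and 17.4. Its twin, chr4:146394849-146396457, had 50.5 in shRNA8 cells at day +2 against 25.5 at day -2.

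Inside the stretch 1 region went the other way. At chr4:146034566-146035305 the ratio was higher in shRNA8 cells by 0.48 ± 0.70 at day +2 and by 0.44 ± 0.35 at day -2, below the size rule, and the day difference in shRNA8 cells was 0.02. It was bright in both channels, with net IP of 584, 561, 540 and 520 and net input of 155, 164, 135 and 138. The 1 chromosome 4 region past the size rule in the higher direction at day +2 lay outside the stretch, at chr4:147221995-147223722, with 0.63 ± 0.11 over 3 probes. The most positive day difference in shRNA8 cells, 0.90 at chr4:147461674-147462129, had an SD of 1.47 over 3 probes and did not pass the rule.

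Regions of 1 layout gave nearly the same profile of probes. The 3 copies at chr2:175261035-175262477, chr2:176096936-176098378 and chr2:176420785-176422227 have 7 probes each. In shRNA8 cells at day -2 the net IP of probe 1 was 568, 527 and 535 in the 3 copies, that of probe 2 was 220, 212 and 223, and that of probe 3 was below 0 in each. Probe 4 had 54.9, 54.4 and 53.1, and probe 6 had 138, 126 and 134. The copies thus repeated one steep pattern, brightest at probe 1 and without signal at probe 3. In input the pattern was flatter, and in every copy the shRNA8 values at day +2 were higher than at day -2 at probes 2 to 7 and lower at probe 1. Net input of probe 4 in shRNA8 cells at day +2 was 48.1, 44.9 and 54.4, against 27.4, 32.0 and 25.9 at day -2.

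**Figure D4:**
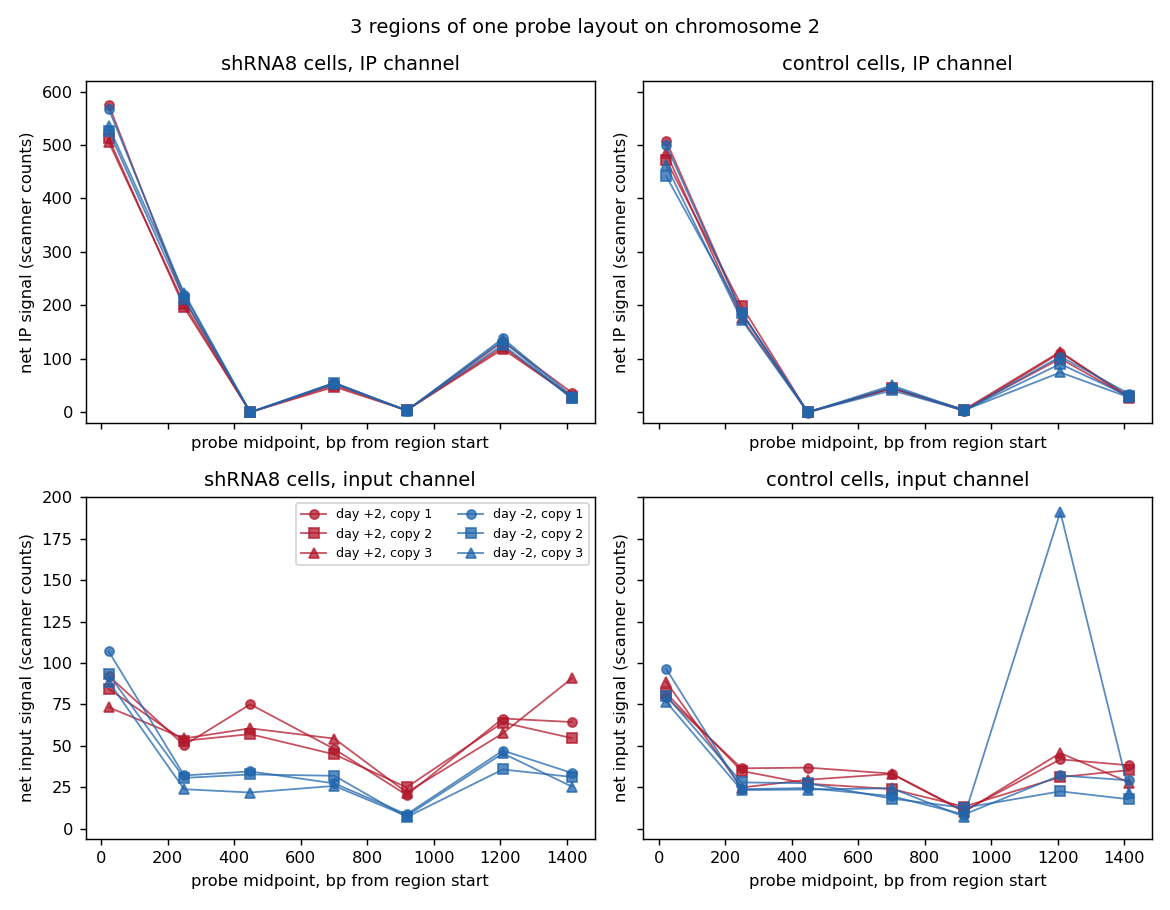
Net IP (upper row) and net input (lower row) of the 7 probes in the 3 regions of one layout on chromosome 2, by distance of the probe midpoint from the region start, for shRNA8 cells (left) and control cells (right), day +2 in red and day -2 in blue. The IP lines of the copies overlie each other, and 1 input spot of copy 3 in control cells at day -2 stands at 191.

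Over the 8 sets, region means of log2 IP varied between copies with an SD of 0.02 to 0.06 in the 4 arrays, whereas all chromosome 2 region means varied with an SD of 1.02 to 1.08. For input the SD between copies was 0.08 to 0.16, against 0.61 to 0.81 for all chromosome 2 regions. Single probes at the same place in the layout varied more between copies, with an SD of 0.10 to 0.15 for IP and 0.17 to 0.45 for input. These spreads are no replicate error, as copies sit on the same arrays, and they hold any difference in sequence between copies beside the scatter of spots. A single spot could still move a region. Probe 6 of copy 3 had a net input of 191 in control cells at day -2, where the other copies had 22.6 and 32.2. With it, that copy differed by 0.53 between the lines at day -2 and by 0.06 between the days in control cells. Without it these values were 0.09 and -0.36, against 0.03 and -0.52 in the first copy and 0.14 and -0.26 in the second. Leaving out this probe was decided after its value was seen.

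The ratio differences of either cluster had the same sign at every place within a region, but their size varied with place. The day difference in shRNA8 cells averaged -0.84 over probes at the start, -1.09 over those in the middle and -0.80 over those at the end of chromosome 2 regions, each region being cut into 3 equal lengths along the chromosome, and -0.35, -0.28 and -0.34 on chromosome 4. Outside the clusters it was 0.00, 0.01 and 0.01. Between the lines at day +2 the chromosome 2 ratio differed by -0.26, -0.43 and -0.19 at these places, and its input by 0.10, 0.21 and 0.02. Levels varied with place as well. On chromosome 4 centred log2 IP in shRNA8 cells at day +2 averaged -1.67 at the start, -0.46 in the middle and -0.35 at the end, and on chromosome 2 it was -2.18, -2.86 and -2.60. The same order held in the other 3 arrays. The strand of the genes was not used.

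The intervals chr7:8-10 Mb and chr4:60-62 Mb, which were chosen for comparison with earlier results of these arrays known, gave similar values. In the chromosome 7 interval 13 of 14 regions were lower at day +2 than at day -2 in shRNA8 cells, with a mean of -0.97, and in the second chromosome 4 interval 12 of 22, with a mean of -0.60. In control cells the counts were 3 of 14 and 0 of 22. Input differed by 0.87 and 0.51 between the days in shRNA8 cells and IP by -0.03 and -0.04. Between the lines at day +2, 4 of 14 and 9 of 22 regions were lower in shRNA8 cells. Layout twins made up 28.6% of the regions in the chromosome 7 interval and none of those in the second chromosome 4 interval. The shorter match, a run of 4 probes, was found in 64.3% and 54.5% of their regions. It was found in 64.7% of regions in the zinc finger interval on chromosome 2 and in 26.7% of all regions. The pattern of an input that differed beside a nearly level IP was thus not particular to the zinc finger intervals on chromosome 2 and at 145 to 148 Mb of chromosome 4. IP varied less than input over the whole array too. Between the days in shRNA8 cells the SD over its 95060 probes was 0.13 for IP and 0.51 for input.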

How the data were processed

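Genomic DNA of 4 samples was hybridized on 2-colour arrays, IP in Cy5 and input in Cy3, from 1 µg of DNA each per the labels' protocols. For shRNA8 cells at day +2 the label of the input gives that day yet calls the cells uninduced; the title decided for day +2. Per the file headers, Agilent Feature Extraction 11.0.1.1 made the deposited intensity values of each spot: median signal, background, background-subtracted (net) signal and a dye-normalized processed signal. The log10 ratio that the authors deposited beside them served as an alternative. Limma is named in the submitters' processing notes, with no role given. Array design, scan and build (mm9) are per the file headers.

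From these, log2 ratios of processed signals were computed. Spots marked as saturated, non-uniform or population outliers were left out (174301 of 174638 probes kept), as were probes with input not above background in all 4 arrays (95060 kept, 54.4%). Ratios were median-centred and then quantile normalized over the 4 arrays, so that global differences in methylation cannot be seen. Channels apart were centred on each array's median. Regions needed at least 3 probes (17452). With 1 array per group no test was made, and precision is limited by that number. The region and layout scripts were tested on simulated data. Members, lists, thresholds and named regions (the most extreme regions of each comparison, the highest and lowest levels, and the edges of each interval) were chosen with earlier results of these data known.

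The alternatives were median centring alone, within-array loess (limma), the deposited log ratio, no input filter, a stricter one, no background subtraction, removal of a trend on input brightness, autosomes alone, other size, probe and gap rules, and each channel alone. Python 3.11.15, numpy 2.4.6, pandas 2.3.3, R 4.3.3 and limma 3.58.1 were used.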

Additional observations from a re-analysis of the deposited data

Results flagged for a closer look

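On chromosome 2 the mean difference between shRNA8 and control cells had opposite signs at the 2 days, -0.29 at day +2 and 0.14 at day -2 (log2 IP/input, mean over 214 probes), which is why it is listed here. With 1 array per line and day, the difference between these values was not tested. The input channel had opposite signs as well, with 0.11 at day +2 and -0.24 at day -2.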

How the results depend on the processing

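No array could be left out, because each group has 1. No paired analysis was possible because the labels carry no replicate numbers and each group has 1 array. A model of line plus day, which would leave 1 residual degree of freedom, was not run; the day difference is given within each line instead. Mean ratio differences of both clusters kept their sign under every alternative run, though some came near 0. On chromosome 2 the line difference of 0.14 at day -2 was 0.02 with the stricter input filter and 0.03 with no background subtraction. That of -0.29 at day +2 was -0.13 with median centring alone. On chromosome 2 the day difference in shRNA8 cells was -1.30 with within-array loess and -0.37 with no background subtraction, and in control cells -0.17 with no background subtraction. With no background subtraction the chromosome 2 input differences between the days were 0.33 in shRNA8 and 0.19 in control cells, and the IP difference between the lines at day +2 was -0.08. No called region among those named changed sign.

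Counts of regions depended more on the settings; the values follow for chromosome 2 and chromosome 4 where they moved by over 1.5 times. With no background subtraction 0 regions passed in every comparison of both clusters except 3 between the lines at day +2 on chromosome 4. By IP alone 0 passed in all of them. By input alone 4 and 4 passed between the lines at day -2, lower on chromosome 2 and higher on chromosome 4, 0 between the lines at day +2 on chromosome 2 and 1 between the days in control cells on chromosome 4, which was higher. Of all regions 1.49% were then lower and 1.11% higher at day -2. At day +2 1.80% were lower and 1.55% higher, and between the days in control cells 1.07% were lower and 1.18% higher. The stricter input filter kept 21 of the 39 chromosome 4 regions and 29 of the 34 on chromosome 2. Of the 21, 6 were lower between the days in shRNA8 cells, 0 between the days in control cells, 9 between the lines at day +2 and 2 at day -2, and of the 29, 4 were lower between the days in control cells. The share of chromosome 4 regions lower between the lines at day +2 was thus 42.9%, against 33.3% with the main filter. The chromosome 4 mean difference there shrank from -0.42 to -0.26. In the other comparisons the chromosome 4 shares fell, from 38.5% to 28.6%, from 5.13% to 0% and from 20.5% to 9.52%. On chromosome 2 the share between the days fell from 82.4% to 75.9% in shRNA8 cells and from 35.3% to 13.8% in control cells. Of all regions 0.886% were lower between the days in shRNA8 cells, 0.137% in control cells, 0.812% between the lines at day +2 and 0.264% at day -2. Within-array loess gave 23 and 7 lower between the days in control cells, 8 lower between the lines at day +2 and 4 higher at day -2 on chromosome 2. The shares of all regions were 2.80%, 3.46% and 2.58% in these comparisons and directions. Median centring alone gave 0 between the lines at day +2 on chromosome 2, against 1.85% lower and 1.66% higher of all regions. A size of 1 left 15 and 1 between the days in shRNA8 cells, 1 and 0 in control cells, 0 and 6 between the lines at day +2 and 0 and 1 at day -2, all lower. Of all regions 0.447%, 0.0688%, 0.235% and 0.115% were lower in these comparisons. A size of 0.4 gave 23 and 10 lower between the days in control cells, and on chromosome 2 10 lower between the lines at day +2 and 2 higher at day -2. The shares of all regions were 3.80%, 5.24% and 4.01% in these comparisons and directions. With all probes one way 17 passed on chromosome 2 between the days in shRNA8 cells, 1 between the lines at day +2, and 1 on chromosome 4 between the days in control cells, as with at least 5 probes. All were lower, against 1.68%, 1.24% and 0.900% of all regions, and 0.672% with at least 5 probes. Where a rule asks for more, its construction cannot raise the count. Otherwise the cause was not tested.

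All probe names were unique, so that an alternative with unique probes alone equals the values given. Net input near local background limits what the ratios can show. Without subtraction mean ratio differences shrank.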
